A study of Mus musculus with 7 samples.

Results

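The Cd4 and Cd8 co-receptor loci were read from the genome-wide maps of Runx3 binding and of the histone mark H3K4me1 in CD8-positive T cells (CD8-TC) of the mouse. A called region was assigned to a locus when its midpoint lay in the body of Cd4, Cd8a or Cd8b1 or within 100 kb of it, in the GENCODE annotation of the genome build NCBIM37 (mm9). This rule uses position only. It gave 10 of the 4934 Runx3-bound regions, 3 at Cd4 and 7 at Cd8, and 65 of the 76705 H3K4me1-marked regions, 30 at Cd4 and 35 at Cd8. Cd8a and Cd8b1 are neighbours and were handled as 1 locus. The Runx3-bound regions are named R1 to R3 at Cd4 and R1 to R7 at Cd8, in order along chromosome 6.

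The chromatin came from resting CD8-TC of the spleens of wild-type ICR mice, with 18 mice pooled, cross-linked and sheared to fragments of about 300 bp. The cells were picked with magnetic beads against CD8, which is the product of Cd8a and Cd8b1 themselves, so any other spleen cell with CD8 on its surface could be kept too, although the study describes the product as highly enriched in CD3-positive CD8-TC. Of the 7 libraries, 3 were for Runx3 from 2 biological repeats, made with an in-house rabbit antiserum. A further 2 were for H3K4me1, made with a commercial antibody, and 2 were controls made with non-immune rabbit serum (NIS). All cells were resting and wild-type, so the maps describe 1 state and hold no contrast between conditions. Regions had been called on the joined repeats of each antibody, so each locus has 1 list of positions per antibody with no replicate error, no peak height and no read count, and the number of reads behind a single region is unknown here.

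CD4 and CD8 are surface proteins that bind the major histocompatibility complex together with the T-cell receptor and bring the kinase Lck to it, CD4 on helper and CD8 on cytotoxic T cells. Cd8a encodes the alpha chain and Cd8b1 the beta chain of CD8. Cd4 is silenced as cells enter the CD8 lineage through a silencer in its first intron that binds RUNX proteins, whereas Cd8a and Cd8b1 are driven by a set of enhancers, E8I to E8V, several of which lie between both genes. Runx3 is the RUNX factor of the cytotoxic lineage, and H3K4me1 (monomethylation of lysine 4 of histone H3) marks enhancers and the flanks of promoters.

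The following stretches of 300 bases show what the Runx3-bound DNA inside Cd4 reads, because this intron is where the silencer is known to lie. For each region the stretch with the most RUNX motifs was taken. Capitals mark the RUNX motif, searched on both strands. Its variants were TGTGGT, which on the opposite strand reads ACCACA, and TGTGGC, which then reads GCCACA. The others were TGCGGT, with ACCGCA on the opposite strand, and TGCGGC, with GCCGCA there. The Cd4 stretch is written 5′ to 3′ on the minus strand, the strand along which Cd4 is transcribed, and lies at chr6:124836009-124836308 of mm9.
Cd4-R3, intron 1 of Cd4: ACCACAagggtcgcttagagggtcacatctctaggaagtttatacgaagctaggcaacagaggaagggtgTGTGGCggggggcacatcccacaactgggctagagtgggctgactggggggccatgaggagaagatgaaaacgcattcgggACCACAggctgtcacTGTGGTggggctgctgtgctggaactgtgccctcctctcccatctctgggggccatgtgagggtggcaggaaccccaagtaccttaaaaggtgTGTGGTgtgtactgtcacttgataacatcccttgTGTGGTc
This stretch held 6 RUNX motifs, 4 on the strand of Cd4 and 2 on the other.

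The next stretches show the 5 Runx3-bound regions between Cd8b1 and Cd8a, where Cd8 enhancers are known to lie, and the region nearest upstream of Cd8b1 for comparison. All are on the plus strand of mm9, the strand along which both genes are transcribed. They lie at chr6:71266429-71266728 (R2), chr6:71291108-71291407 (R3), chr6:71292843-71293142 (R4), chr6:71294706-71295005 (R5), chr6:71307670-71307969 (R6) and chr6:71319586-71319885 (R7).
Cd8-R2, upstream of Cd8b1: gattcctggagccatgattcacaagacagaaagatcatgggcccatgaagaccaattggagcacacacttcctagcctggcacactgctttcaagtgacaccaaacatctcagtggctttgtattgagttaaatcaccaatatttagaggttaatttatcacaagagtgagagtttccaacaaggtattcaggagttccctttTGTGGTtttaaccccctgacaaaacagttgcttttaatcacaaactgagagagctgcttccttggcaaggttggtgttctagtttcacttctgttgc
Cd8-R3, between Cd8b1 and Cd8a: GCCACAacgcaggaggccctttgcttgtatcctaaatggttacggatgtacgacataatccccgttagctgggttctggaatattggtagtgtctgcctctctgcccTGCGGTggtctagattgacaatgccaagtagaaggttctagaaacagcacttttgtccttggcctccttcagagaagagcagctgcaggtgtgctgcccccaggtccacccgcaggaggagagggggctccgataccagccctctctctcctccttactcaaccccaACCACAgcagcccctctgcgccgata
Cd8-R4, between Cd8b1 and Cd8a: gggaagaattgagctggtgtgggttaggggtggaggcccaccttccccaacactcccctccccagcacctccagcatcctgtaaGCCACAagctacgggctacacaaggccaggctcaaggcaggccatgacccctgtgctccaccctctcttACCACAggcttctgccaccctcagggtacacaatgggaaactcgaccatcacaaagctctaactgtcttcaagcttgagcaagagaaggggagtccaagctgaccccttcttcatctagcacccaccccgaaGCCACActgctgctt
Cd8-R5, between Cd8b1 and Cd8a: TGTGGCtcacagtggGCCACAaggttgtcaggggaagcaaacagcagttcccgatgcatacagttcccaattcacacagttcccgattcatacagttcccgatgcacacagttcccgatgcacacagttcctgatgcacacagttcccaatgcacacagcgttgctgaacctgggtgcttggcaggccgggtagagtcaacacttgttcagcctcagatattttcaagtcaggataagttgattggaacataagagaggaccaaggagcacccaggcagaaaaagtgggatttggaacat
Cd8-R6, between Cd8b1 and Cd8a: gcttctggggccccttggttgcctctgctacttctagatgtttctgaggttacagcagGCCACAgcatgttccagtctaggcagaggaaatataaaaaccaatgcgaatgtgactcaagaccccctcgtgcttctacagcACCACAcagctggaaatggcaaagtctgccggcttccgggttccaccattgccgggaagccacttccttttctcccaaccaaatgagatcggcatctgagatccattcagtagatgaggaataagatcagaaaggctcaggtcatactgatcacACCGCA
Cd8-R7, nearest to Cd8a: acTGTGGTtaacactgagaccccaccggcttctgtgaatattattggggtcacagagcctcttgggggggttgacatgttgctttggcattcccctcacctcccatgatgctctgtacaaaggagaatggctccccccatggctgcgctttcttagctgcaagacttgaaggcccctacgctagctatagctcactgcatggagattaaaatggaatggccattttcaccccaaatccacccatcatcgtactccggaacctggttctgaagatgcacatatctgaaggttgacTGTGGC
These stretches held 1 motif in R2, 3 each in R3, R4 and R6, and 2 each in R5 and R7.

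Cd4 (ENSMUSG00000023274.7) lies on the minus strand at chr6:124814710-124838239 and spans 23530 bp. The first question was whether Runx3 lay on the silencer intron. A single Runx3-bound region was called in the gene body, at chr6:124835632-124836516 (R3, 885 bp). Its midpoint was in intron 1, 2165 bp downstream of the transcription start site (TSS). The study lists Cd4 among the genes that Runx3 binds in CD8-TC and names the silencer in this intron. Coordinates of the silencer were not given in the sources used here, so its overlap with R3 was not measured. Of 22350 protein-coding genes, 845 (3.78%) held a Runx3-bound region in the first intron, and neither Cd8a nor Cd8b1 was among them. In width R3 was ordinary for the list, whose median was 851 bp (range 327 to 5232 bp), since 43.3% of all Runx3-bound regions were as wide or wider.

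R3 stood out from the other regions by its sequence. It held 7 RUNX motifs, of which 6 read TGTGGT and 1 TGTGGC, against a median of 2 over all Runx3-bound regions, and 2.59% of all regions held as many. Of its motifs, 6 fell within 300 bp, a density reached by 0.831% of all Runx3-bound regions. None of the other 9 regions had more than 3 within that length. The starts of successive motifs were 192, 34, 93, 15, 81 and 70 bp apart in order along the chromosome. The pair 15 bp apart, near the middle of the printed Cd4 stretch, lay on opposite strands and reads ACCACA followed by TGTGGT. In the 200 bp around the midpoint there were 4 motifs, all TGTGGT. Inside the gene body, 46 RUNX motifs were found, so the 7 in R3 made up 15.2% of them in 3.76% of its length.

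**Figure D1:**
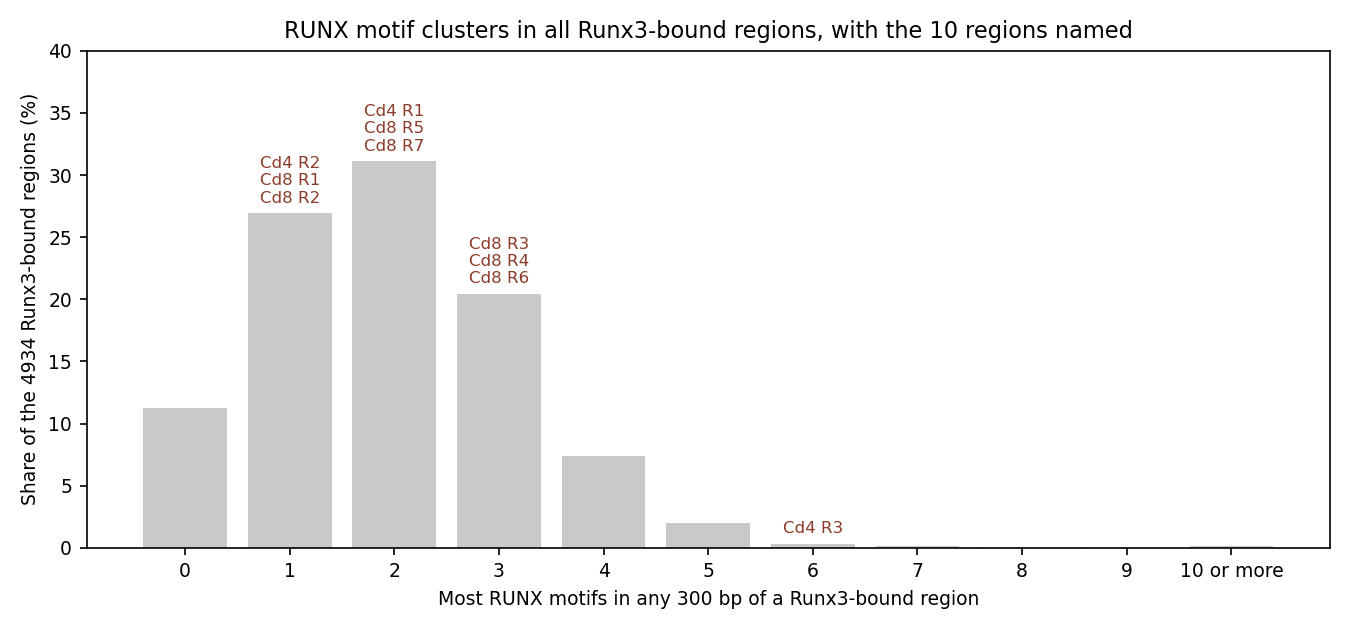
Largest number of RUNX motifs in any 300 bp (horizontal axis) against the share of the 4934 Runx3-bound regions in percent (bars), with the 10 regions of the co-receptor loci named above the bar they belong to. The Cd4 intron region R3 stands alone at 6 motifs, whereas the other 9 lie at 1 to 3, where most Runx3-bound regions are.

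Within Cd4, called H3K4me1 took up little of the gene and lay in intron 1 only. The 2 H3K4me1-marked regions with a midpoint in the gene body, at chr6:124834758-124836212 (1455 bp) and chr6:124836527-124837135 (609 bp), covered 2064 bp or 8.77% of Cd4. The first was wider than the list median of 979 bp, with 30.3% of all marked regions as wide or wider, and overlapped R3 by 581 bp, which is 65.6% of the Runx3-bound region. Between both lay a stretch of 314 bp outside the mark, at chr6:124836213-124836526, of which 304 bp were inside R3. Of the 7 RUNX motifs of R3, 5 were in the marked part and 2 in this gap. All 40-mers that start in the gap occur once in the genome. How reads aligned in the gap was not tested.

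The TSS of Cd4 was outside the mark. The nearest marked regions lay 1104 bp downstream and 2473 bp upstream of it, the latter being chr6:124840712-124841312 (601 bp), which left 3576 bp without H3K4me1. The TSS of Cd8a and Cd8b1 were outside it as well, so 0 of the 3 genes had a TSS in an H3K4me1-marked region. Over all protein-coding genes this share was 17.7%. In the promoter sequence, from 250 bp before to 50 bp after the TSS, Cd4 and Cd8b1 held no RUNX motif and Cd8a held 1, and 45.3% of promoters of that length held at least 1.

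**Figure D2:**
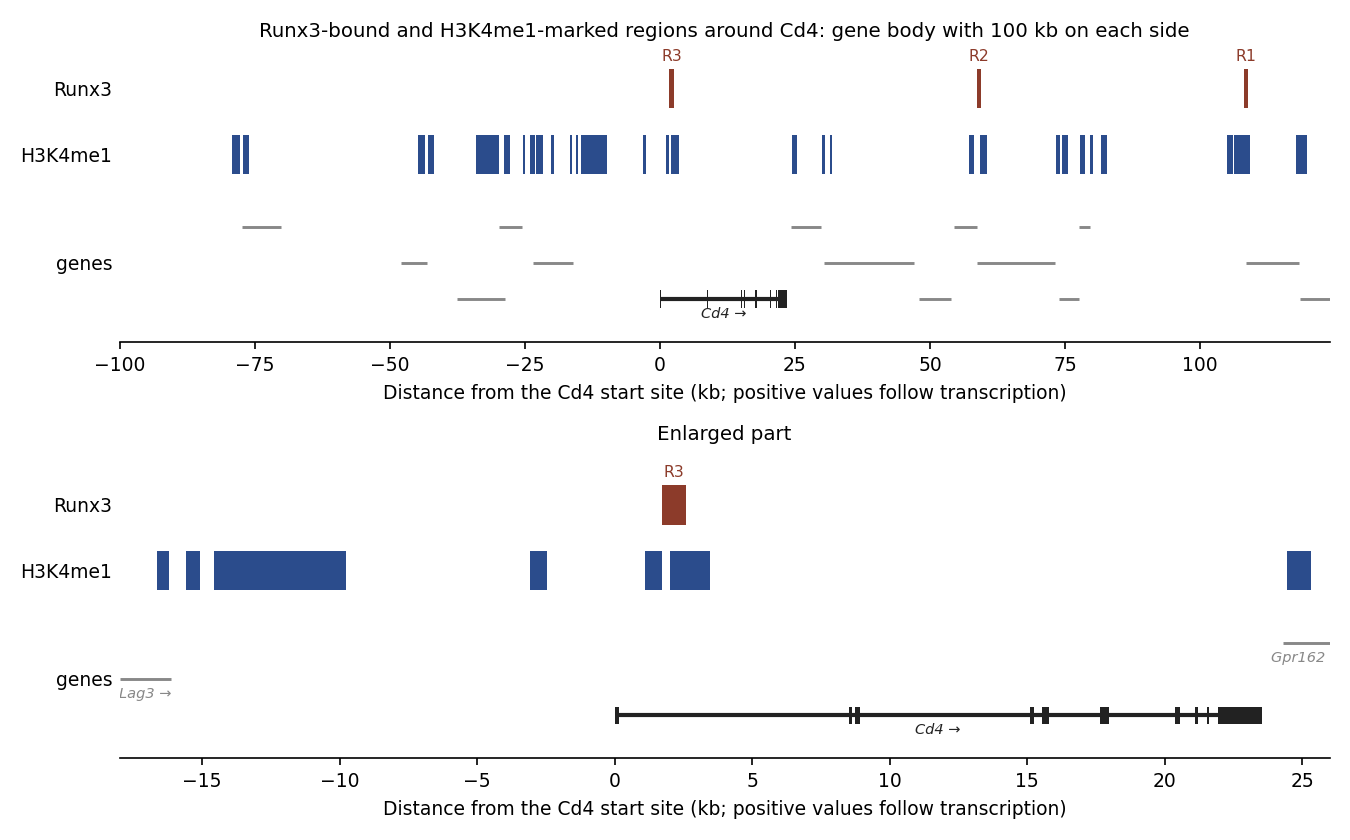
Runx3-bound (brown) and H3K4me1-marked (blue) regions around Cd4 against the distance from its TSS in kb, for the whole window (top) and enlarged around the gene (bottom), with exons as black boxes and other genes in grey. R3 lies 2165 bp into the gene and overlaps 1 of the 2 marked regions there, and the widest marked region of the window, of 4817 bp, lies upstream between Cd4 and Lag3 with no Runx3.

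The other Runx3-bound regions of the Cd4 window lay at the starts of other genes. R1, at chr6:124729392-124730062 (671 bp), was centred 5 bp from the TSS of Lrrc23, which encodes a leucine-rich repeat protein, and 108512 bp from that of Cd4. It held 1 TGCGGT and 1 TGCGGC, and was covered by H3K4me1 over its whole length. R2, at chr6:124778787-124779542 (756 bp), was centred 251 bp from a TSS of Usp5, which encodes a deubiquitinating enzyme, and 59075 bp from that of Cd4. It held a single motif, TGTGGC, and H3K4me1 covered 232 bp or 30.7% of it. By nearest TSS, therefore, only R3 of the 3 belonged to Cd4. The Cd4 window of 223530 bp is crowded, with 15 protein-coding genes against 6 in the Cd8 window of 256336 bp.

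Most H3K4me1 of the Cd4 window was outside the gene, as was most of the window itself. The gene body spans 23530 of the 223530 bp and held 2064 of the 36570 marked bp. Downstream of Cd4 there were 13 marked regions with widths of 303 to 3006 bp (median 901 bp), and 2 of them overlapped a Runx3-bound region. Upstream there were 15 with widths of 440 to 4817 bp (median 1182 bp), and none overlapped one. The widest of the window, chr6:124848004-124852820 (4817 bp), lay in the interval between Cd4 and Lag3, which encodes an inhibitory receptor related to CD4. It exceeded all but 3.07% of the 76705 marked regions in width, held 11 RUNX motifs and carried no Runx3-bound region. The proximal enhancer of Cd4 is known to lie upstream of the gene, but its exact position was not given in the sources used here, so this region was not equated with it. Of the 30 marked regions, 3 were nearest to the TSS of Cd4 and 7 to that of Lag3.

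At the Cd8 locus, Runx3 lay between the genes and upstream. Cd8b1 (ENSMUSG00000053044.7) spans 14642 bp at chr6:71272830-71287471 and Cd8a (ENSMUSG00000053977.7) spans 5745 bp at chr6:71323421-71329165, both on the plus strand. The 35949 bp between them held 5 Runx3-bound regions, R3 to R7. Over the genome, 35 of 19775 intervals between neighbouring protein-coding genes (0.177%) held at least 5, and the fullest held 9. Intervals differ in length, and longer ones can hold more.

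R3 (chr6:71290913-71291875, 963 bp), R4 (chr6:71292466-71293520, 1055 bp) and R5 (chr6:71294418-71295537, 1120 bp) formed a tight group on the Cd8b1 side. Their midpoints were 18564, 20163 and 22147 bp downstream of the Cd8b1 TSS and 32027, 30428 and 28444 bp upstream of the Cd8a TSS. The gaps between their edges were 590 and 897 bp. Of all Runx3-bound regions, 3.91% had a neighbour within 1000 bp. R4 and R5 were also the widest of the 10, with 12.8% and 7.60% of the list as wide or wider. By the locus drawing of the study, read together with textbook positions, the enhancer E8II lies at this group.

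R6 (chr6:71307256-71308138, 883 bp) lay 15724 bp and R7 (chr6:71319183-71320103, 921 bp) 3778 bp upstream of the Cd8a TSS. They were separate from the group and from each other, with 11718 bp between R5 and R6 and 11044 bp between R6 and R7. By the same drawing and textbook positions, E8I lies at R6 and E8V at R7. No coordinates of the enhancers were at hand, so the match of names to regions is approximate, and E8III and E8IV were not placed here.

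Upstream of Cd8b1, R1 (chr6:71257455-71257957, 503 bp) and R2 (chr6:71266109-71267049, 941 bp) were centred 15124 and 6251 bp from its TSS. Both lay in intron 1 of Smyd1, which encodes a methyltransferase of muscle and is transcribed away from Cd8b1 on the minus strand. R1 was the narrowest of the 10, since 98.2% of the list was as wide or wider. Each held a single RUNX motif, TGTGGT. By nearest TSS, R3 to R5 belonged to Cd8b1, R6 and R7 to Cd8a, R2 to Smyd1 and R1 to Gm1070.

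**Figure D3:**
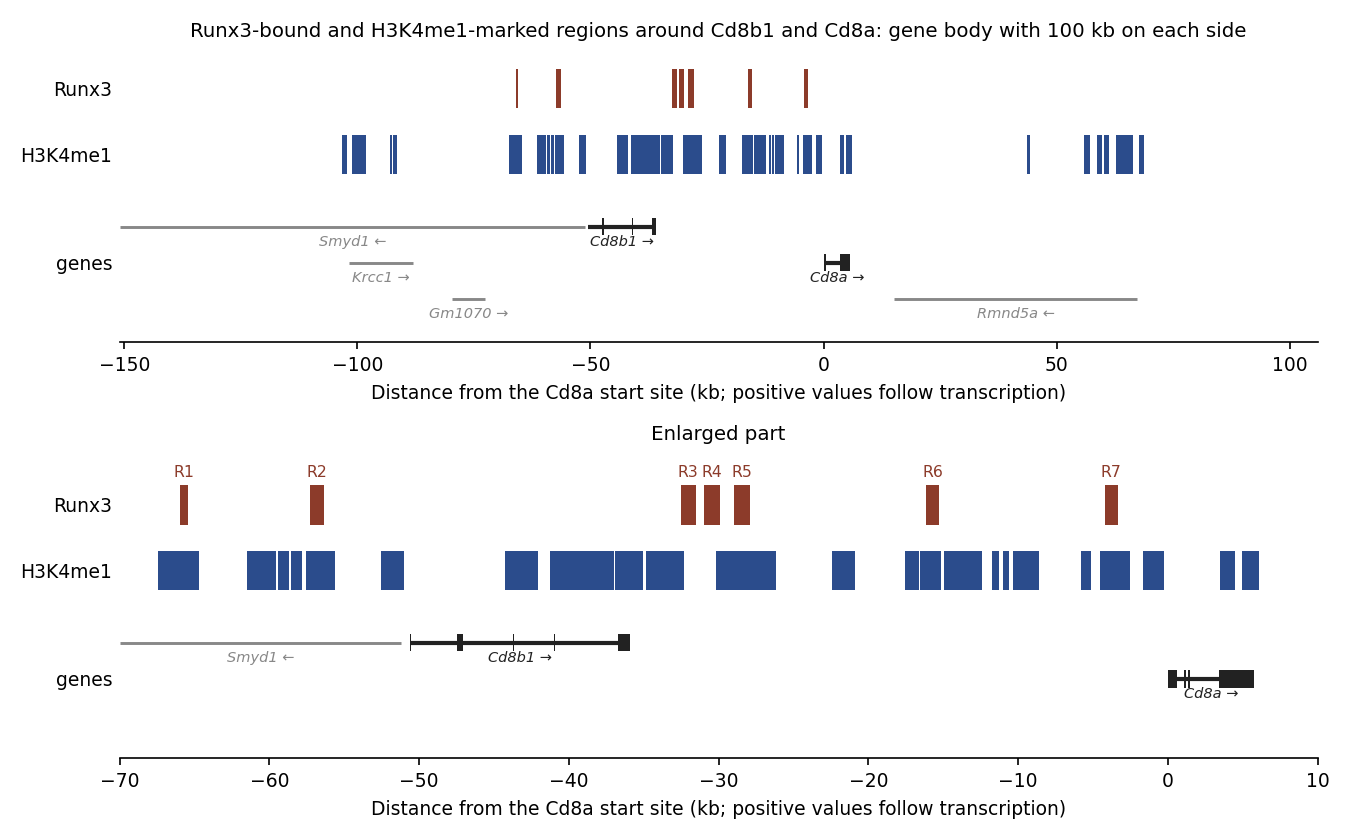
Runx3-bound (brown) and H3K4me1-marked (blue) regions around Cd8b1 and Cd8a against the distance from the Cd8a TSS in kb, for the whole window (top) and enlarged around the genes (bottom). All 7 Runx3-bound regions lie upstream of Cd8a and 5 of them between the genes, where H3K4me1 covers 56.9% of the sequence.

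H3K4me1 covered a larger share of the Cd8 genes and of the interval between them than of the Cd4 body. It took up 20439 bp or 56.9% of the interval, 51.1% of the Cd8b1 body and 31.5% of the Cd8a body, against 8.77% of the Cd4 body. Cover was not computed over all gene bodies or intervals, so these shares have no such background. The interval held 13 marked regions with widths of 415 to 4057 bp (median 1381 bp), 4 of which overlapped Runx3. The bodies of Cd8b1 and Cd8a held 3 and 2 marked regions, as many as 22.7% and 34.5% of protein-coding genes had. Neither held Runx3, which 8.52% of genes had in the body. The widest of the window, chr6:71282178-71286439 (4262 bp), lay in Cd8b1. Upstream of Cd8b1 there were 11 marked regions (459 to 2980 bp, median 1052 bp), 2 with Runx3, and downstream of Cd8a 6 (554 to 3698 bp), none with Runx3.

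Both Cd8 start sites lay just downstream of a marked region. The nearest upstream of Cd8a, chr6:71321781-71323161 (1381 bp), ended 260 bp before the TSS, and the next one downstream, chr6:71326901-71327875 (975 bp), began 3480 bp after it. For Cd8b1 the upstream one, chr6:71270882-71272422 (1541 bp), ended 408 bp before the TSS, and the next, chr6:71279131-71281367 (2237 bp), began 6301 bp after it. The stretches without the mark were thus 3739 bp at Cd8a and 6708 bp at Cd8b1, and 97.6% and 98.7% of their 40-mers occur once in the genome.

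All 10 Runx3-bound regions of the loci overlapped H3K4me1 by at least 1 bp (100%, exact 95% interval 69.2 to 100%), against 78.8% of all Runx3-bound regions, a share that lies within this interval. The interval covers counting error only, and neighbouring regions are not independent. The midpoint was inside the mark in 7 of 10 (70%, exact interval 34.8 to 93.3%), against 66.1% of all. Neither share therefore set the loci apart from the whole list.

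The 10 regions fell into those inside the mark and those at its edge. Cd4 R1 and Cd8 R1, R2, R5, R6 and R7 were covered over their whole length, which held for 50.6% of all Runx3-bound regions. At Cd4 R1 the marked region was chr6:124729015-124732020 (3006 bp), and the one that reached into Cd4 R2 was chr6:124777732-124779018 (1287 bp). Upstream of Cd8b1 they were chr6:71256440-71258745 (2306 bp) at R1 and chr6:71265896-71267814 (1919 bp) at R2. On the Cd8a side they were chr6:71306869-71308240 (1372 bp) at R6 and chr6:71318902-71320875 (1974 bp) at R7. Cd8 R3 and R4 were covered over 186 bp (19.3%) and 310 bp (29.4%). They lay mostly within a gap in H3K4me1 of 2112 bp at chr6:71291099-71293210, of which 777 bp lay in R3 and 745 bp in R4. The gap was flanked by the marked regions chr6:71288581-71291098 (2518 bp) and chr6:71293211-71297267 (4057 bp), the second of which also held R5. All 6 RUNX motifs of R3 and R4 lay in the gap, so that the 2 printed stretches of R3 and R4 were wholly outside the mark. Every 40-mer starting in the gap occurs once in the genome.

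**Figure D4:**
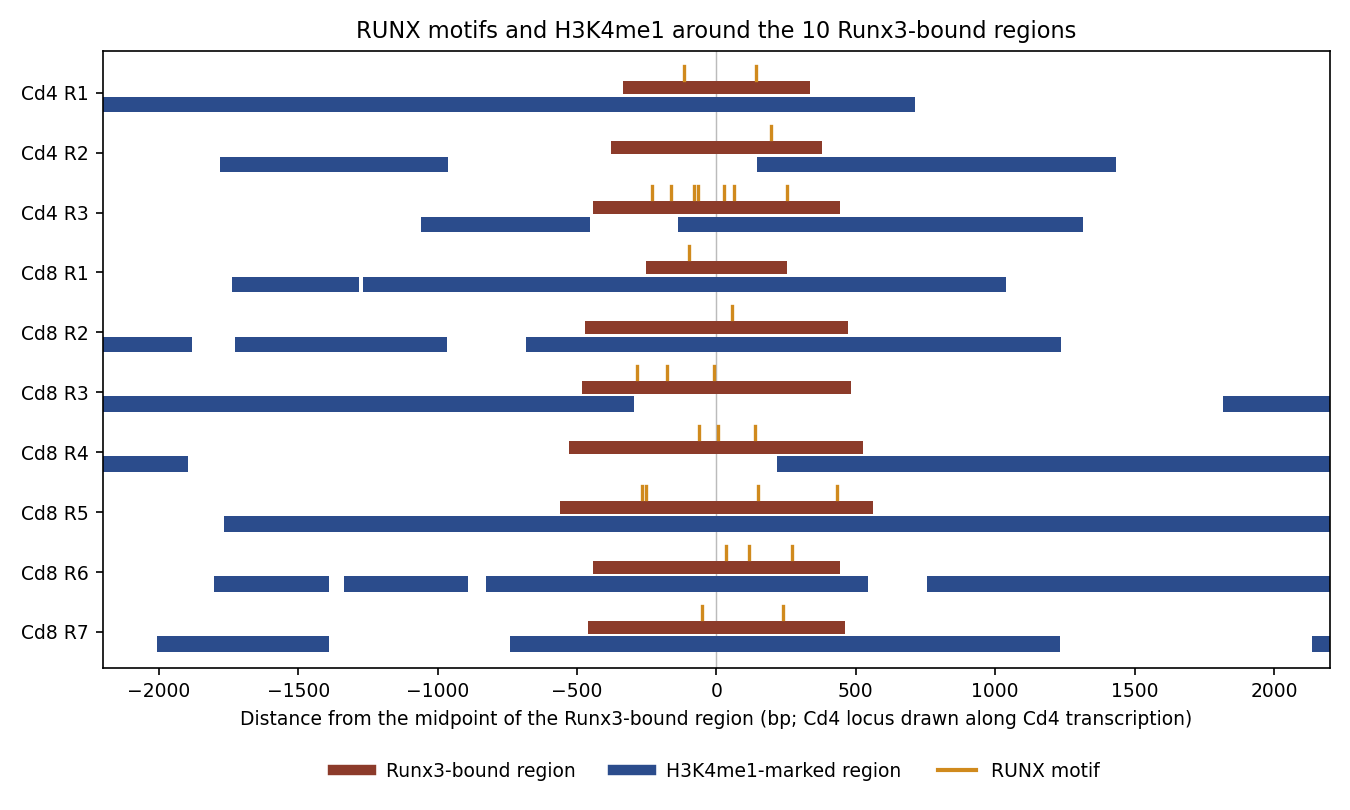
The 10 Runx3-bound regions (brown) aligned on their midpoints, with H3K4me1-marked regions (blue) and RUNX motifs (ochre ticks) against the distance from the midpoint in bp. Cd8 R3 and R4 lie mostly within 1 gap of 2112 bp in the mark, at its opposite ends and with all their motifs in it, whereas 6 of the 10 regions are covered over their whole length.

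Each of the 10 regions held at least 1 RUNX motif, as did 88.8% of all Runx3-bound regions. At Cd8 the numbers were 1, 1, 3, 3, 4, 3 and 2 from R1 to R7. R5 was the only Cd8 region with RUNX motifs within 50 bp of each other, an arrangement found in 34.3% of all regions. This pair, at the start of its printed stretch, reads TGTGGC and GCCACA with starts 15 bp apart, the same distance as the closest pair at Cd4 but with each motif on the other strand. In the 200 bp around the midpoint, 6 of the 10 regions held a motif, against 66.0% of all. Those without were Cd4 R1 and R2 and Cd8 R1 and R5.

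The ETS motif GGAA, the core bound by ETS factors such as Ets1, was present 3 to 17 times in each of the 10 regions and in 99.9% of all, a motif too short to tell regions apart. A RUNX motif with GGAA within 50 bp occurred in 9 of the 10, the exception being Cd4 R2, and in 79.2% of all. In Cd4 R3, 6 RUNX motifs had such a partner.

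Most RUNX motifs of the loci carried no called Runx3. In the Cd4 window, 10 of 413 motifs (2.42%) lay in Runx3-bound regions, and in the Cd8 window 17 of 432 (3.94%). Between Cd8b1 and Cd8a it was 15 of 69 (21.7%). Runx3-bound regions made up 1.03%, 2.49% and 13.7% of the length of these stretches, in the same order. The density between the genes was 3.04 motifs per kb inside Runx3-bound regions and 1.74 per kb outside. In the Cd4 body it was 7.91 per kb in R3 and 1.72 per kb outside. H3K4me1-marked sequence held 1.89 per kb in the Cd4 window and 1.78 per kb in the Cd8 window, close to the 1.85 and 1.69 per kb of the whole windows. In the Cd4 body, marked sequence held 8 motifs or 3.88 per kb, against 1.95 per kb of the whole body. Between Cd8b1 and Cd8a it held 2.05 per kb, against 1.92 per kb of the whole interval.

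Against all 22350 protein-coding genes, the loci held many Runx3-bound regions. At least 1 region in the body or within 100 kb was found for 44.1% of genes, and the median was 0. Cd4 had 3, a number reached by 8.69% of genes. Cd8a and Cd8b1 had 7 each, which are the same 7 regions, and 0.358% of genes had as many. At least 1 H3K4me1-marked region was found for 83.6% of genes, with a median of 13 (quartiles 4 and 22). Cd4 had 30, Cd8a 34 and Cd8b1 33, and 10.4%, 6.24% and 7.18% of genes had as many. H3K4me1 covered 16.4% of the Cd4 window, 25.0% of that of Cd8a and 23.4% of that of Cd8b1, against a median of 6.27%. These 100-kb windows take in neighbouring genes, and genes in 1 window share regions.

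**Figure D5:**
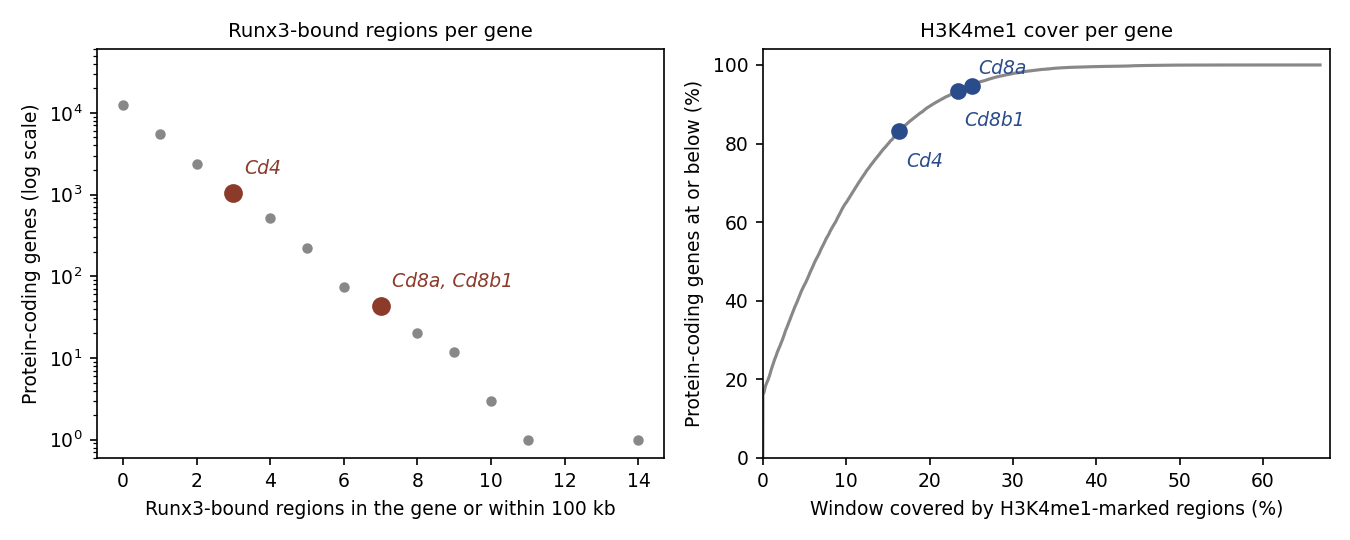
Left, number of protein-coding genes (log scale) by the number of Runx3-bound regions in the gene or within 100 kb. Right, cumulative share of genes in percent by the percentage of that window covered by H3K4me1. Cd8a and Cd8b1 (7 regions, 25.0% and 23.4% cover) lie nearer the upper end than Cd4 (3 regions, 16.4% cover).

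The windows cut the Cd8 locus from Runx3 on both sides more clearly than the Cd4 locus. The next Runx3-bound regions beyond the Cd8 window were centred 378598 bp past its lower edge and 159540 bp past its upper edge. At Cd4 the innermost outside region, chr6:124690783-124691540, was 23549 bp past the lower edge, and R1 was 15017 bp inside it. On the upper side the next was 83219 bp past the edge.

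The other genes of the pathway were counted from 2 lists. All 17 genes of T-cell receptor and co-receptor signalling had a Runx3-bound region within 100 kb (median 4), against the 44.1% of all genes. Cd247, which encodes the zeta chain of the receptor, had 7, as many as the Cd8 genes. Cd3d, Cd3e and Cd3g, which encode further receptor chains in 1 cluster, had 6 each, as had Ptprc, the phosphatase CD45. Of 17 factors known from the choice between CD4 and CD8, 14 had at least 1 (median 2). Lef1 had 9, Tcf7 8, Runx1 7 and Tox 6, and Runx3 itself 2. Gata3, Cbfb, the partner of all RUNX proteins, and Bcl11b had 0. Zbtb7b, the helper-lineage factor ThPOK, had 1. All genes of both lists had H3K4me1 within 100 kb, with medians of 33 and 34 regions, against 83.6% of all genes and a median of 13. The lists hold large and clustered genes, and were not chosen to match all genes in size.

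The labelled cell type was checked at marker genes with a margin of 5 kb. All 8 markers of CD8-positive T cells, Cd8a and Cd8b1 included, had H3K4me1 (3 to 25 regions) and 6 of 8 had Runx3. Over all genes these shares were 67.1% and 13.0%. Of 6 NK-cell markers 2 had H3K4me1, and Ncr1, Klra8, Klra4 and Klri2 were at 0. Of 4 red-cell markers 2 had it. However, all 8 B-cell markers (2 to 43 regions), all 7 markers of CD8-positive dendritic cells (3 to 11) and 5 of 6 monocyte and macrophage markers (0 to 14) had it too. Runx3 was at 2 of 8, 1 of 7 and 1 of 6 of them, and at 2 of 6 NK-cell and 0 of 4 red-cell markers. The part of other spleen cells in the regions of the co-receptor loci was not tested, and fewer marked cells cannot be told apart from less mark per cell.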

How the data were processed

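The maps come from ChIP-seq, the sequencing of DNA that an antibody pulls down from cross-linked chromatin, of resting splenic CD8-TC. Reads of 40 to 42 bp were aligned by the authors with ELAND to mm9, and uniquely aligned reads were kept. The submitters' processing notes name CASAVA 1.6 and 1.7. Repeats were joined and peaks called with MACS against the joined NIS libraries, the larger data set being scaled to the smaller. The deposited files hold 1 list of regions per antibody as genomic coordinates (chromosome, start, end and name), with no score, count or p-value. These files give no depth. The study states the filtered, uniquely aligned reads of each antibody and of NIS, which were of like size, but those totals cannot be computed from the lists and are not used here.

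From these lists, starts were shifted by 1 bp to browser positions, and regions were assigned by midpoint with GENCODE genes of NCBIM37. The midpoint of a region is not its summit. Overlap needed 1 bp. The exact 95% binomial intervals are Clopper-Pearson. Motifs were searched on both strands in the NCBIM37 sequence, and uniqueness was counted over 40-mers of the genome. Counts at the loci are set beside the same count over all genes, intervals or regions, and no test was made, since 1 list per antibody leaves no replicates. The searches and counts were tested on simulated data. Python 3.11.15 was used with numpy 2.4.6, scipy 1.17.1, numba 0.67.0 and matplotlib 3.10.9.

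The genes and gene lists were chosen with earlier results of these data known. All 3 genes and all their Runx3-bound regions are named. H3K4me1-marked regions are named where they overlap Runx3, flank a start site or are the widest of a window, other genes where they are nearest to a Runx3-bound region or place such a region, and list members where they are among those with the most Runx3-bound regions, with 1 list member not reported here. Further list members (Gata3, Cbfb, Bcl11b, Zbtb7b and Runx3) were named after their values were seen. So were the NK-cell markers Ncr1, Klra8, Klra4 and Klri2, named for having no H3K4me1-marked region within 5 kb. One list entry, Mazr, is a synonym of Patz1 and was counted once. The alternatives were other margins, any overlap, the nearest TSS, merged neighbours, a minimum width, a minimum cover, the midpoint inside, motifs in the central 200 bp and all gene types.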

Additional observations from a re-analysis of the deposited data

How the results depend on the processing

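Alternatives were judged by kind of value, counts by a factor of 1.5 and shares by the exact 95% interval of the reported share over its regions, bases or genes, which is wide for 10 regions and narrow for bases and genes. Of 35 values for 9 results, 17 were within these limits and 18 were not, so that a value within them can have moved more than one outside. Among the former, the H3K4me1 overlap of the 10 regions went from 100% to 70% with at least 50% cover or the midpoint inside, and the 30 marked regions at Cd4 became 20 at 50 kb. The 7 Runx3-bound regions at Cd8 stayed between 5 and 7. At Cd4 the count of 3 became 1 at 10 kb or by nearest TSS and 6 at 200 kb. The 30 H3K4me1-marked regions at Cd4 became 6 at 10 kb, 62 at 200 kb, 3 by nearest TSS, 17 with neighbours within 1000 bp merged and 17 at or above the median width. The 35 at Cd8 became 23, 18, 17 and 22 at 10 kb, by nearest TSS, merged and at or above the median width. Cover of the Cd4 window (16.4%) became 19.4% merged and 19.1% at 50 kb, and that of the Cd8 window (21.0%) 23.2% and 28.1%. Of the 10 Runx3-bound regions with a RUNX motif, 6 kept one in the central 200 bp. With all gene types the 44.1% of genes became 38.7%. Each of these settings changes which sequence or regions are counted. No paired analysis was possible because regions were called on joined repeats, which also kept single repeats from being left out. Without read counts or heights, a weak region cannot be told from a strong one, and the absence of a call is not the absence of binding.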

Other observations

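Motifs of other factors with a part in T cells were counted in the 10 Runx3-bound regions on both strands. The E-box CANNTG, bound by E proteins, occurred 1 to 6 times in each region and in 97.9% of all Runx3-bound regions. The T-box letters GGTGTG, the core bound by T-box factors such as T-bet and Eomes, occurred 4 times in Cd4 R3, where 3 of the matches overlapped a RUNX motif, and at most once in any of the other 9. Of all Runx3-bound regions 48.1% held GGTGTG. The letters CTTTGA, bound by TCF/LEF factors, were found in 6 of the 10, against 51.8% of all. GATAAG, bound by GATA factors, was found in Cd8 R4 and R5 only, 1 match each, against 24.4% of all. These matches are descriptions of sequence, since binding of these factors was not measured here.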
